A study of Homo sapiens with 4 samples.

Results

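The 10 genes described here encode cargo adaptors of cytoplasmic dynein, and they were taken by name from the 57905 genes counted by RNA sequencing in U87MG cells, an established human glioblastoma line. They are BICDL1 (named CCDC64 in older annotation), BICDL2, BICD1, BICD2, HOOK1, HOOK2, HOOK3, SPDL1, TRAK1 and TRAK2. BICDL1 was chosen by its measured read counts, which were higher with chaetocin, so its change is given as a description without a test, and the other 9 were chosen as its relatives. The study sequenced 4 samples in groups of 2, wild type U87MG cells left untreated and the same line after 50 nM chaetocin, dissolved in DMSO, for 24 h. Chaetocin is a fungal metabolite that inhibits histone methyltransferases unspecifically and also inhibits TXNRD1, a thioredoxin reductase. The labels do not say whether the 2 samples of a group came from separate cultures, so p-values measure the spread between these samples, which may be technical. The labels do not say that the untreated cells received DMSO, and if they did not, chaetocin and its solvent cannot be told apart. In RNA from whole wells, fewer cells with a transcript and less of that transcript per cell cannot be told apart either.

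Cytoplasmic dynein is the motor that walks along microtubules towards their minus ends, usually near the cell centre. It moves over long distances only when bound to the dynactin complex and to a coiled-coil adaptor that also holds the cargo. BICD1, BICD2 and BICDL1 link the motor to vesicles marked by the GTPase RAB6, the HOOK proteins link it to endosomes, TRAK1 and TRAK2 link it and kinesin to mitochondria, and SPDL1 (Spindly) brings it to kinetochores in mitosis.

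The libraries held between 21241984 and 32590479 counts. A count of 0 allows a level of up to 0.0844 to 0.138 CPM (counts after TMM normalization, scaled to the same total in every library), a limit of 3 counts per library. Since PCR copies share an original molecule, such limits and intervals cover counting error only. VIM and CD44, expressed in this line, were abundant, whereas the glial markers SOX2 and S100B had 0 reads in both control samples and at most 5 with chaetocin. Summed over 8 astroglial and glioma markers, the level was 5498 and 4794 CPM in the control samples, against 3223 and 1973 CPM with chaetocin. VIM and CD44 made up most of this sum. Of the 8 markers 6 lay below both controls in each chaetocin sample, and SOX2 and S100B lay above, with few reads. Of the 5 that passed the filter on low counts 5 lay below, against 26.0% of all tested genes. Of 8 leukocyte markers, 5 lay above both controls in each chaetocin sample. Among the 4 that passed the filter 4 did, against 26.8% of all tested genes. Their summed level was 0.574 and 0.696 CPM in the controls, against 2.76 and 3.57 CPM. Among those markers CD3E was at 0 in all libraries, and PTPRC had 0 and 1 reads against 15 and 27. The 8 neuron markers summed to 86.7 and 90.0 CPM in the controls, against 74.8 and 82.6 CPM, with ELAVL4 at 0 in all libraries.

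BICDL1 (ENSG00000135127, chromosome 12), also called BICDR-1, is an adaptor for RAB6 vesicles known from developing neurons. In untreated cells it was scarce, with 31 and 50 reads, or 1.27 and 1.74 CPM. After chaetocin it had 233 and 665 reads, or 10.7 and 18.7 CPM. Both chaetocin samples lay above both control samples, and the chaetocin samples themselves differed by more than their counting error, with exact Poisson 95% intervals of 9.38 to 12.2 CPM and 17.3 to 20.2 CPM. The control mean was 1.51 ± 0.33 CPM and the chaetocin mean 14.7 ± 5.66 CPM (SD over n = 2 samples in either group). This is a 9.78-fold difference, and the fitted log2 fold change was 3.28. Relative to the control mean, chaetocin sample 1 lay 2.83 higher on the log2 scale and sample 2 lay 3.64 higher. Of the 8 leukocyte markers 5, and of the 8 neuron markers 3, lay higher in both chaetocin samples, and 2 neuron markers lay lower in both. Among the tested markers, 4 of 4 leukocyte and 2 of 5 neuron markers lay higher, against 26.8% of all tested genes. Of those 5 neuron markers 2 lay lower, against 26.0%. The part of these markers in the BICDL1 result was not tested. Of the leukocyte markers, PTPRC and ITGAM had at most 1 read in a control and passed the filter on low counts only through the chaetocin samples, so their difference is a description with no test, at 15 and 27 reads for PTPRC and 24 and 29 for ITGAM. Of the neuron markers TUBB3 passed the test, where 1.85% of all tested genes did. TUBB3, a tubulin, had 3.03 and 4.49 CPM in the controls, against 11.0 and 12.1 CPM (log2 fold change 1.61, adjusted p = 0.0306, edgeR's quasi-likelihood test). SNAP25, a synaptic protein, had 42.1 and 34.7 CPM in the controls, against 28.95 and 11.1 CPM (log2 fold change -0.95, adjusted p = 0.230, edgeR), and SYT1, a calcium sensor of synaptic vesicles, lay at -0.37 on the same scale (adjusted p = 0.275, edgeR).

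BICDL2 (ENSG00000162069, chromosome 16), the paralog of BICDL1, stayed near the limit of detection. It had 0 and 1 reads in untreated cells, against 0 and 2 reads after chaetocin. The counts of 0 allow up to 0.123 CPM in control sample 1 and 0.138 CPM in chaetocin sample 1, and no difference was detectable at this depth. The gene span of BICDL2 overlaps that of THOC6 on the opposite strand, and whether strand was used in counting is not given in the sources used here.

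**Figure D1:**
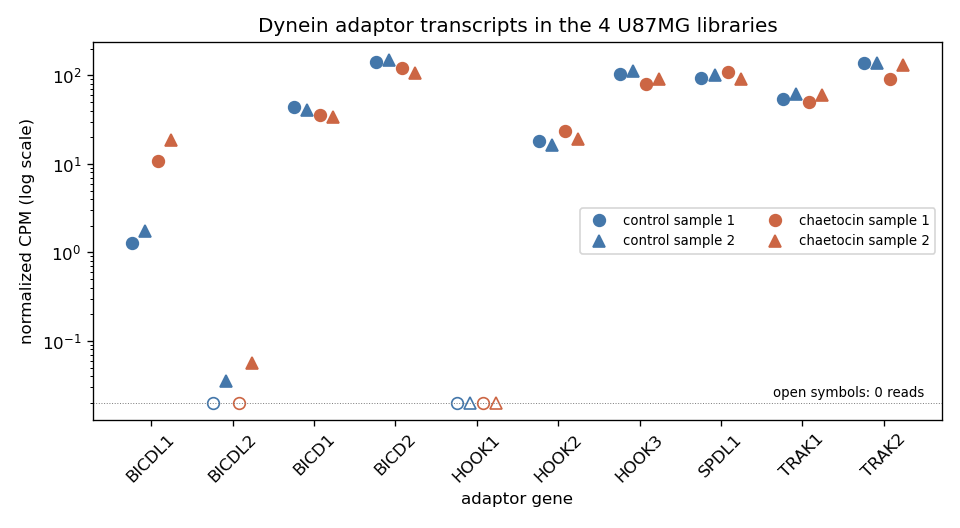
Normalized CPM (log axis) of each of the 10 adaptors in each library, with circles for sample 1 and triangles for sample 2 of each group and open symbols at the bottom for 0 reads. BICDL1 lies at 1.27 and 1.74 CPM in the controls but at 10.7 and 18.7 CPM with chaetocin, and HOOK1 has no read in any library. The abundant adaptors differ less between libraries than BICDL1, though TRAK2 is lower in chaetocin sample 1 (90.3 CPM) than in the other libraries.

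BICD1 (ENSG00000151746, chromosome 12) and BICD2 (ENSG00000185963, chromosome 9), the classical Bicaudal D adaptors, both lay lower with chaetocin. BICD2, which also takes dynein to the nuclear envelope before mitosis, had 142 and 151 CPM in untreated cells, against 120.2 and 106 CPM after chaetocin. Both chaetocin samples lay below both controls, a log2 fold change of -0.37 (95% interval -0.70 to -0.03, unadjusted p = 0.0347, adjusted p = 0.208, edgeR's quasi-likelihood test). BICD1 had 43.6 and 40.9 CPM against 35.8 and 33.8 CPM, again without overlap (log2 fold change -0.28, 95% interval -0.62 to 0.06, adjusted p = 0.333, edgeR). Neither passed the threshold of 0.05 on the adjusted p, and without chaetocin sample 1 BICD2 did, with a log2 fold change of -0.46 and an adjusted p of 0.0286 in edgeR's test. In that fit 17.0% of all genes passed, against 1.85% with all samples.

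The 3 HOOK genes differed in level. HOOK1 (ENSG00000134709, chromosome 1) had 0 reads in each of the 4 libraries, which allows levels of up to 0.123 and 0.104 CPM in the controls and 0.138 and 0.0844 CPM after treatment. HOOK3 (ENSG00000168172, chromosome 8), the HOOK protein best studied as a dynein activator, had 105 and 113 CPM in untreated cells, against 79.9 and 91.5 CPM after chaetocin. Its groups did not overlap, and the log2 fold change was -0.35 (95% interval -0.68 to -0.01, unadjusted p = 0.0446, adjusted p = 0.236, edgeR). When chaetocin sample 2 was left out, HOOK3 passed, with a log2 fold change of -0.46 and an adjusted p of 0.0457 (edgeR), in a fit where 9.82% of all genes passed.

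HOOK2 (ENSG00000095066, chromosome 19), a centrosomal relative, lay higher in both chaetocin samples. Its level was 18.3 and 16.3 CPM in the controls, against 23.3 and 19.0 CPM, without overlap but with an interval that includes 0 (log2 fold change 0.29, 95% interval -0.13 to 0.71, adjusted p = 0.418, edgeR). The gene span of HOOK2 in GENCODE overlaps those of PRDX2 on the same strand and of JUNB and RNASEH2A on the opposite strand, so some of its reads may be uncertain. HOOK3 likewise overlaps RNF170, and TRAK2 overlaps STRADB, each on the opposite strand.

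SPDL1 and TRAK1 had overlapping groups. SPDL1 (ENSG00000040275, chromosome 5), which recruits dynein to kinetochores, had 94.3 and 99.8 CPM in the controls, against 110.3 and 91.3 CPM (log2 fold change 0.05, 95% interval -0.30 to 0.40, adjusted p = 0.886, edgeR). TRAK1 (ENSG00000182606, chromosome 3), which joins mitochondria to both motors, had 53.6 and 61.2 CPM against 50.1 and 59.6 CPM, and its log2 fold change was -0.06 (95% interval -0.43 to 0.30, adjusted p = 0.867, edgeR), or 0.01 with upper-quartile normalization. The chaetocin samples of SPDL1 lay on either side of the controls, and those of TRAK1 lay below and between them.

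TRAK2 (ENSG00000115993, chromosome 2), the other mitochondrial adaptor, had nearly equal control samples and unequal chaetocin samples. It had 139.6 and 138.9 CPM in the controls, against 90.3 and 130.5 CPM, without overlap (log2 fold change -0.33, 95% interval -0.77 to 0.10, adjusted p = 0.363, edgeR). Chaetocin sample 1 was lower than the control mean by 0.62 on the log2 scale (-0.62), and chaetocin sample 2 by much less (-0.09). With chaetocin sample 2 left out, the log2 fold change of TRAK2 was -0.63, and with chaetocin sample 1 left out it was -0.09. The size of its change thus rests on which library is used.

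**Figure D2:**
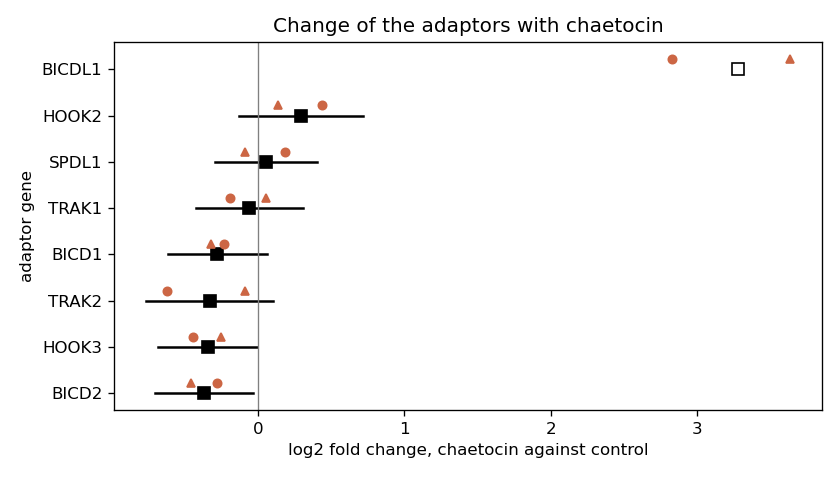
Log2 fold change of the 8 tested adaptors, chaetocin against control (squares), with 95% intervals from the fit across all genes (lines) and each chaetocin sample against the control mean (circles for sample 1, triangles for sample 2). BICDL1, chosen for its higher level and shown with an open square and no interval, lies at 3.28, while the other 7 lie between -0.37 and 0.29.

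Across the list, 8 of the 10 adaptors passed the filter on low counts, and BICDL2 and HOOK1 did not. BICDL1 was chosen on this contrast and is left out of the counts that follow. Of the other 7, 0 passed the adjusted threshold in edgeR, where 1.85% of 16416 tested genes passed in either direction, 1.11% as higher and 0.743% as lower. In DESeq2 0 of the 7 passed, where 5.08% of all genes passed, 2.25% as higher and 2.82% as lower. Of these 7, BICD2 and HOOK3, both lower, had an unadjusted p under 0.05, as did 20.3% of all tested genes, 10.9% as higher and 9.43% as lower. In edgeR 0 of the 7 passed without control sample 1 or 2, where 1.74% and 2.10% of all genes did. Without chaetocin sample 1 BICD2 passed, and without chaetocin sample 2 HOOK3 and TRAK2 passed, where 17.0% and 9.82% of all genes did. Among those 7, chaetocin and control samples did not overlap in 4 lower genes and 1 higher gene, against 26.0% and 26.8% of all tested genes, or 52.7% in either direction. Over all genes 182 were called higher and 122 lower, and with upper-quartile normalization 246 and 88.

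Levels can be compared between genes per length only, here as CPM per kilobase of the longest GENCODE transcript. In untreated cells the order was SPDL1 (36.4 ± 1.47), BICD2 (22.8 ± 1.03), TRAK2 (21.4 ± 0.08), TRAK1 (10.4 ± 0.97), HOOK3 (7.58 ± 0.40), HOOK2 (6.63 ± 0.55), BICD1 (4.79 ± 0.22), BICDL1 (0.49 ± 0.11), BICDL2 and HOOK1 (CPM per kb, SD, n = 2). No neighbours in this order down to BICDL1 overlapped between their control samples, though BICD2 and TRAK2 were near each other. BICDL2 and HOOK1 were not told apart at this depth.

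With chaetocin, BICDL1 had 4.82 ± 1.85 CPM per kb, a higher mean than that of BICD1, which had 3.95 ± 0.17 (SD, n = 2 each). The values of BICDL1, 3.50 and 6.13, overlapped both those of BICD1 (4.07 and 3.83) and those of HOOK3 (5.55 and 6.36), so the order of these neighbours did not differ beyond the spread. As a share of the summed level of the 10 adaptors per kb, BICDL1 made up 0.384% and 0.506% in untreated cells, against 3.34% and 5.82% after chaetocin. The summed level itself was 108 and 113 CPM per kb in the controls, against 105.0 and 105.2 CPM per kb.

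The order depends on the length used. Per kilobase of coding sequence, HOOK3 had 50.6 ± 2.69 CPM per kb in untreated cells, close to TRAK2 at 50.8 ± 0.19, SPDL1 at 53.5 ± 2.17 and BICD2 at 57.0 ± 2.57 (SD, n = 2 each). On that scale BICDL1 after chaetocin, at 8.56 ± 3.30 CPM per kb, remained below BICD1 at 11.9 ± 0.50, and its values of 6.23 and 10.9 did not overlap the 12.3 and 11.5 of BICD1.

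The balance within pairs of paralogs was compared next, because a ratio within a library does not depend on its scaling. The ratio of BICD2 to BICD1, per kb of the longest transcript, was 4.45 and 5.06 in the controls, against 4.60 and 4.32 after chaetocin, so the groups overlapped. HOOK3 to HOOK2 was 1.04 and 1.26 in the controls and 0.620 and 0.872 with chaetocin, all chaetocin values being lower. TRAK2 to TRAK1 was 2.22 and 1.93 against 1.53 and 1.86, again lower in both chaetocin samples, with sample 2 close to the lower control. These ratios are given without a test, since an exact permutation test of 2 against 2 samples can give no 2-sided p under 0.333. BICDL1 to BICD2 was 0.0189 and 0.0243 in the controls and 0.187 and 0.370 with chaetocin. The size of a ratio depends on the length used. Per kb of coding sequence HOOK3 to HOOK2 was 5.75 and 6.97 in the controls and 3.43 and 4.83 with chaetocin.

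**Figure D3:**
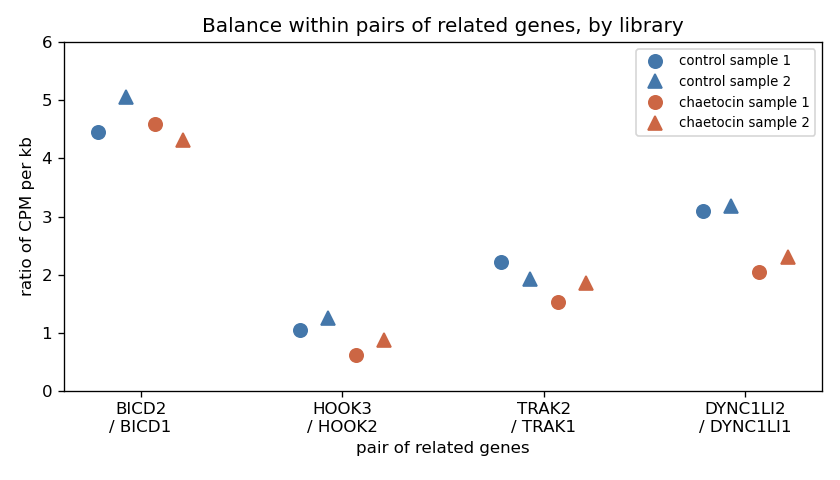
Ratio of CPM per kb of the longest transcript within 4 pairs of related genes, by library (circles for sample 1, triangles for sample 2). The BICD2 to BICD1 ratio overlaps between groups, and the HOOK3 to HOOK2, TRAK2 to TRAK1 and DYNC1LI2 to DYNC1LI1 ratios are lower in both chaetocin samples, the last at 2.04 and 2.31 against 3.10 and 3.19.

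The motor that these adaptors bind was examined in 5 lists of 61 genes. Dynein contacts its adaptors through the light intermediate chains, and of these DYNC1LI2 had 147 and 145 CPM in the controls, against 90.2 and 108 CPM (log2 fold change -0.56, 95% interval -0.91 to -0.21, adjusted p = 0.0946, edgeR). DYNC1LI1, the other light intermediate chain, had a log2 fold change of -0.03 with overlapping groups. The ratio of DYNC1LI2 to DYNC1LI1 per kb was 3.10 and 3.19 in the controls and 2.04 and 2.31 with chaetocin. DESeq2 called DYNC1LI2 (adjusted p = 0.0483), and so did edgeR without chaetocin sample 1 (adjusted p = 0.0339) and without chaetocin sample 2 (adjusted p = 0.00763), in fits where 17.0% and 9.82% of all genes passed. Without control sample 1 or 2 it did not pass in edgeR (adjusted p = 0.470 and 0.387).

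Of the 10 dynein subunit genes tested, 0 passed in edgeR, 1 had an unadjusted p under 0.05 and 1 was called by DESeq2, in each case DYNC1LI2. Over all tested genes these shares were 1.85%, 20.3% and 5.08%. Of the 10, 9 lay below 0, with a median log2 fold change of -0.23 against 0.008 over all tested genes, of which 49.1% lay below 0. With upper-quartile normalization 8 of the 10 lay below 0, as did 6761 of the 16416 tested genes. The medians were then -0.15 for the 10 genes and 0.085 over all tested genes. The largest value belonged to DYNLL2, a light chain (0.13, adjusted p = 0.712, edgeR), and turned negative without chaetocin sample 2 (-0.07). The smallest was that of DYNC1LI2.

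Dynactin is the large complex that activates dynein. Of its 12 subunit genes 0 passed in edgeR or DESeq2, 2 had an unadjusted p under 0.05 (20.3% of all tested genes did), and 12 lay below 0 (11 with upper-quartile normalization, where ACTR1A was at 0.0005), with a median of -0.26. ACTR1B, a subunit of the actin-like filament, had the smallest value, with 88.7 and 79.2 CPM in the controls and 64.6 and 46.3 CPM with chaetocin (log2 fold change -0.60, adjusted p = 0.128, edgeR). Without the filter on low counts edgeR called ACTR1B (adjusted p = 0.0123), where 4.88% of all genes passed. Its log2 fold change was -0.85 without chaetocin sample 1 and -0.39 without chaetocin sample 2. Without control sample 1 or 2 it was -0.53 and -0.69. ACTR1A, the other filament subunit, had the largest value (-0.08, adjusted p = 0.818, edgeR).

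Among the 3 regulators, PAFAH1B1 (LIS1), which helps dynein to open, had 327 CPM in both controls and 292 and 261 CPM with chaetocin (log2 fold change -0.24, adjusted p = 0.422, edgeR). NDE1, which brings PAFAH1B1 to dynein, had 34.5 and 32.0 CPM against 38.2 and 39.4 CPM (0.23, adjusted p = 0.435, edgeR). NDEL1, the paralog of NDE1, had 64.7 and 64.1 CPM against 74.2 and 67.1 CPM (0.13, adjusted p = 0.650, edgeR). The groups did not overlap in any of the 3 genes, as in 52.7% of all tested genes. Of the 3 regulators, 0 passed in edgeR or DESeq2 and 0 had an unadjusted p under 0.05, where 1.85%, 5.08% and 20.3% of all genes did.

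The other adaptors outside the list were split, with 5 of 12 tested genes below 0 and a median of 0.12. In edgeR 0 of the 12 passed and 3 had an unadjusted p under 0.05 (20.3% of all tested genes did), and DESeq2 called 1 (5.08% of all genes). CCDC88B, a HOOK-related protein, had 1.84 and 1.43 CPM in the controls and 3.58 and 2.79 CPM with chaetocin, and it had the largest value (log2 fold change 0.96, adjusted p = 0.154, edgeR). Its paralog CCDC88A had the smallest, with 349 and 357 CPM against 241 and 274 CPM (-0.45, adjusted p = 0.162, edgeR). When each sample was left out, the log2 fold change of CCDC88A ranged from -0.56 to -0.36. RAB11FIP3, an adaptor of recycling endosomes named here after its values were seen, had 19.1 and 21.5 CPM against 30.9 and 36.0 CPM (0.72, adjusted p = 0.0679 in edgeR and 0.0333 in DESeq2).

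The 21 partners of the adaptors include cargo proteins, kinesin motors and modifying enzymes. Of these 21, 0 passed in edgeR, 2 had an unadjusted p under 0.05 (20.3% of all tested genes did) and 1 was called by DESeq2 (5.08% of all genes). Below 0 lay 13, with a median of -0.08. With upper-quartile normalization 11 lay below 0, and the median was -0.005 against 0.085 over all tested genes. OGT, the enzyme that adds N-acetylglucosamine to proteins including TRAK1, had 264 and 235 CPM in the controls and 159 and 156 CPM with chaetocin. This was the smallest value of the list (log2 fold change -0.66, adjusted p = 0.0642, edgeR), and it was called by DESeq2 (adjusted p = 0.00688) and by edgeR without chaetocin sample 1 (adjusted p = 0.00486) or sample 2 (adjusted p = 0.0148), in fits where 17.0% and 9.82% of all genes passed. Without control sample 1 or 2 OGT did not pass in edgeR (adjusted p = 0.436 and 0.192). RAB6B, the neuronal form of the GTPase that BICD proteins bind, had the largest value, with 2.42 and 2.37 CPM against 3.13 and 3.29 CPM (0.43, adjusted p = 0.437, edgeR). Over the 58 tested genes of the 5 lists, edgeR called 0 at the adjusted threshold, 8 had an unadjusted p under 0.05 (2 higher and 6 lower), and DESeq2 called 1 higher and 2 lower. Over all genes 20.3% had such a p (10.9% higher and 9.43% lower) and DESeq2 called 5.08%. In 28 of the 58 both chaetocin samples lay below both controls and in 10 they lay above, against the 26.0% and 26.8% of all tested genes given before.

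**Figure D4:**
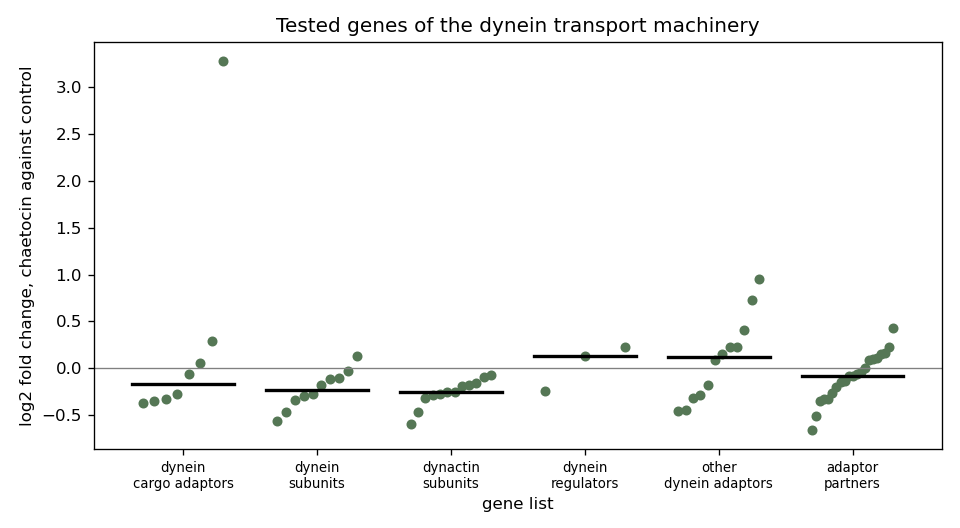
Log2 fold change, chaetocin against control, of each tested gene (points, ordered by value) in the adaptor list and in the 5 lists of dynein machinery, with the median of each list as a bar. BICDL1 at 3.28 stands above the other genes, all 12 dynactin genes lie below 0 with TMM normalization (11 with upper-quartile normalization), and the largest value outside the adaptor list is 0.96, for CCDC88B.

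To see whether genes around BICDL1 on chromosome 12 moved with it, the 3 protein-coding genes on either side in GENCODE were examined. CIT, a mitotic kinase encoded beside BICDL1 on the opposite strand, had 172 and 183 CPM in the controls and 177 and 204 CPM with chaetocin (log2 fold change 0.10, adjusted p = 0.757, edgeR, and -0.0092 without chaetocin sample 2). RAB35, a GTPase of endosomes on the other side, had 51.0 and 49.2 CPM against 43.9 and 41.6 CPM (-0.23, adjusted p = 0.411, edgeR). Farther out, PRKAB1, GCN1 and RPLP0 had log2 fold changes of -0.01, -0.15 and -0.27, and that of PRKAB1 was 0.06 with upper-quartile normalization. TMEM233 had 48.5 and 55.1 CPM in the controls and 44.6 and 27.9 CPM with chaetocin (-0.52, adjusted p = 0.242, edgeR). When each sample was left out, the log2 fold change of TMEM233 ranged from -0.89 to -0.22. Of the 6 neighbours, 0 passed in edgeR without a block (1.85% of all tested genes did) or in DESeq2 (5.08% did). TMEM233 had an unadjusted p of 0.0482 in edgeR, where 20.3% of all tested genes had 1 under 0.05. It passed in edgeR with the replicate number as a block (adjusted p = 0.0439), in a fit that called 12.7% of all genes. TMEM233, RAB35 and RPLP0 lay lower in both chaetocin samples without overlap, as did 26.0% of all tested genes.

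**Figure D5:**
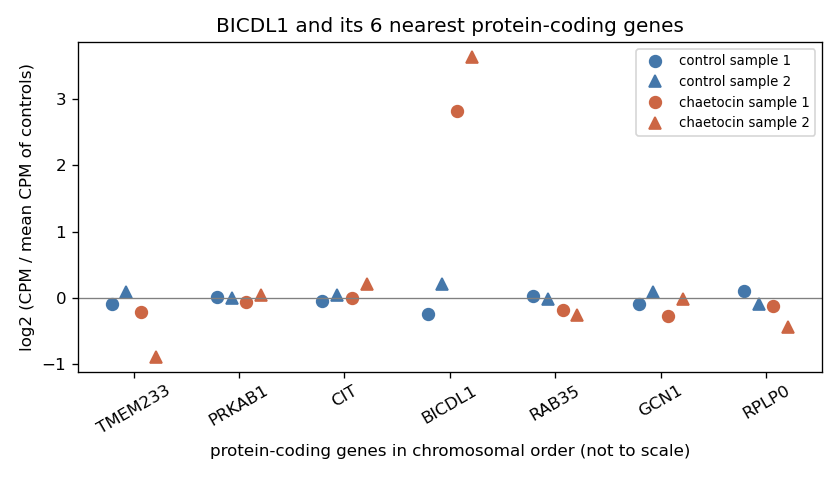
Log2 ratio of each library's CPM to the mean of the control samples for BICDL1 and the 3 protein-coding genes on either side, in chromosomal order (circles for sample 1, triangles for sample 2). BICDL1 lies at 2.83 and 3.64 with chaetocin, and the highest value of a neighbour with chaetocin is 0.20, for CIT in sample 2.

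The genes whose log2 CPM profile over the 4 libraries was nearest to that of BICDL1 were RASSF6, ENSG00000241912, PIK3C2G, PGR and LNCOC1, at Euclidean distances of 0.385 to 0.452 on the log2 scale after centring each gene. They are given as a description, since the likeness used the same contrast. The prior count of 2 in log2 CPM shrinks differences between low counts. Fitted log2 fold changes ranged from 3.15 (LNCOC1) to 6.93 (PGR), against 3.28 for BICDL1, so a near profile does not mean a change of the same size. RASSF6, a relative of the RAS-association tumour suppressors, had 1 read in each control and 14 and 40 reads with chaetocin. PGR, the progesterone receptor, had 0 reads in both controls and 10 and 22 with chaetocin, and PIK3C2G, a lipid kinase, had 0 in both and then 8 and 22. LNCOC1, a long non-coding RNA, had 7 and 19 reads against 70 and 190. All 5 had fewer reads than BICDL1 in each library. Chaetocin sample 2 stood apart in the number of genes with at least 1 count, 27748 against 24174 to 24699 in the other libraries, and the part of this in the levels of these 5 genes and of BICDL1 was not tested.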

How the data were processed

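Polyadenylated RNA of U87MG cells was sequenced as 50 bp single-end reads. The authors deposited raw read counts per Ensembl gene, 1 table per sample, without normalization. The submitters' processing notes list cutadapt, TopHat2, TopHat and SAMtools and the build GRCh37, and the counting tool and its strand setting are not given in the sources used here. Depth was 21241984 to 32590479 counts per sample.

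Genes were named from the table of gene identifiers (51996 of 57905 matched). Lengths and neighbours came from GENCODE release 29 on GRCh38. As this differs from the build of the files, no coordinates are given. The edgeR quasi-likelihood test (edgeR 4.0.16, R 4.3.3) was fitted to all genes with treatment as the only term, filterByExpr (minimum count 10, 16416 genes kept), TMM normalization and a robust fit. P-values were adjusted by the Benjamini-Hochberg method over all tested genes with a threshold of 0.05, and each standard error is the absolute log2 fold change divided by the square root of its F value. Log2 CPM used a prior count of 2. The script was tested on simulated data. Alternatives were RLE and upper-quartile normalization, 2 other filters, DESeq2 1.42.0, a replicate block and leaving out each sample.

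The members and lists were chosen with earlier results of these data known. Genes named were the 10 adaptors, called genes and the largest and smallest change of each machinery list, 3 protein-coding neighbours on either side of BICDL1, and the 5 nearest profiles.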

Additional observations from a re-analysis of the deposited data

How the results depend on the processing

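BICDL1 kept a log2 fold change of 3.26 to 3.36 under every alternative that used all 4 samples and of 2.81 to 3.63 when each sample was left out. Genes called higher and lower numbered 787 and 759 without a filter, 114 and 80 when each sample had to reach 10 counts, 382 and 478 with DESeq2 and 1036 and 1053 with the replicate number as a block, and when each sample was left out they ranged from 215 to 1332 and from 97 to 1673. Without 1 chaetocin sample, the remaining one is assumed to vary like the controls. Of the adaptors, 0 to 2 were called lower when a sample was left out. Of the 58 machinery genes, 1 was called higher and 3 lower without a filter, 1 and 2 with DESeq2, 1 and 4 with the block, and 0 to 1 and 0 to 9 when a sample was left out. Over all genes 4.88% were called without a filter, 5.08% with DESeq2, 12.7% with the block and 1.74% to 17.0% when a sample was left out. The causes of these differences were not tested.

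The replicate numbers are shared by the groups, but the labels do not say what they mark, and the difference between samples 1 and 2 had r = 0.123 across genes between the groups. With 2 samples per group this does not settle whether the numbers pair the samples, and they were not treated as pairs. With the block, ACTR1B, OGT, DCTN2, RAB11FIP3 and DYNC1LI2 and the neighbour TMEM233 (log2 fold change -0.55) were called, in a fit that called 12.7% of all genes, and no adaptor call changed.

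Signs reversed for TRAK1 (0.015), ACTR1A (0.00045) and PRKAB1 (0.063) with upper-quartile normalization and for PRKAB1 (0.0085) with at least 10 counts in every sample. Upper-quartile normalization also moved the median log2 fold change over all tested genes from 0.008 to 0.085. When each sample was left out, the log2 fold change ranged from -0.086 to 0.18 for SPDL1, from -0.20 to 0.058 for TRAK1, from -0.068 to 0.30 for DYNLL2, from -0.070 to 0.035 for PRKAB1 and from -0.0092 to 0.20 for CIT. The control share of BICDL1 was 0.342% per coding length and 0.356% per median transcript length, against 0.445%. Depth limits BICDL1 most in the controls, where it had at most 50 reads, and leaves BICDL2 and HOOK1 at or near 0.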
